A study of Mus musculus with 24 samples.

Results

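The genes described here are 10 components of the circadian clock of the mouse liver, Arntl, Clock, Npas2, Per1, Per2, Per3, Cry1, Nr1d1, Nr1d2 and Dbp, chosen by name from the 23972 genes of a bulk RNA-Seq count table. Each symbol matched a single Ensembl gene. The table held 24 libraries, each from the liver of 1 female mouse that carried 2 floxed Lmna alleles (Lmna fl/fl, exons 10 and 11 between loxP sites). Controls (Lmna.WT in the labels) lacked Adipoq-Cre, and Lmna ADKO mice (Lmna.KO) carried it, on a C57BL/6J background, so that lamin A/C, a protein of the nuclear lamina, was to be lost from adipocytes while the liver kept its floxed alleles. The mice were 12 to 14 weeks old when experiments began, were housed at 22°C under a light period of 12 hours, and ate a diet with 60% fat for 4 weeks before they received vehicle or adeno-associated virus of serotype 8 that carried FGF21, a hormone made mainly in liver. Livers were taken 8 weeks later. The study's methods give the diet ad libitum and name no change of diet after the virus. The labels call the virus groups Rescue and name no agent. The groups were control with vehicle (n = 7), control with rescue (n = 3), Lmna ADKO with vehicle (n = 6) and Lmna ADKO with rescue (n = 8).

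The clock is a feedback loop of transcription. CLOCK or its relative NPAS2 pairs with BMAL1, the product of Arntl, and the pair binds E-box sequences to switch on the Per and Cry genes, whose proteins then enter the nucleus and block it, as well as Nr1d1, Nr1d2 and Dbp. REV-ERB alpha and REV-ERB beta, the products of Nr1d1 and Nr1d2, repress Arntl in a second loop, and DBP carries the rhythm to genes with D-box sequences. In liver the loop is set by feeding, glucocorticoids and body temperature as well as by light, and it drives daily rhythms of many metabolic genes, so the level of a clock transcript depends on the hour at which a liver was taken. That hour is not in the labels.

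Promoter sequences were searched for such sites. RefSeq windows of 300 bases around transcript starts (build GRCm38.p6) matched 9 of the 10 genes in 13 windows, the exception being Per2. Both strands were searched for the E-box CACGTG, the E-box variant CACGTT, the ROR and REV-ERB site TAGGTCA and the D-box TTATGTAA, none of which shares all its letters with another, and 5 of the genes held at least 1 of them. The stretches below show, from 5′ to 3′ on the strand of the gene, the matches in a repressor of each family, a REV-ERB, an activator and a D-box gene, with the motif in capitals (AACGTG is CACGTT read from the other strand).
Cry1, chr10:85185089-85185153, minus strand: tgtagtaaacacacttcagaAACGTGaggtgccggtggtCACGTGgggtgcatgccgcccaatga
Per1, chr11:69098763-69098808, plus strand: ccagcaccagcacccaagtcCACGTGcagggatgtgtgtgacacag
Nr1d1, chr11:98775380-98775425, minus strand: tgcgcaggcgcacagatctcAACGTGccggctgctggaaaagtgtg
Per3, chr4:151044796-151044890, minus strand: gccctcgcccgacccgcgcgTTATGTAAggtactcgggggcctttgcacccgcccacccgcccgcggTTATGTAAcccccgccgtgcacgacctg
Arntl, chr7:113207531-113207557, plus strand: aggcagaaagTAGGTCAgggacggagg

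Among all 32851 windows, 7.15% held CACGTG, 4.68% held CACGTT, 2.61% held TAGGTCA and 0.938% held TTATGTAA. Per3 held the D-box at 2 places, and Cry1 held both forms of the E-box. No E-box of either form was found in the windows of Dbp, Nr1d2 or Per3. Sites outside these windows were not searched. A match describes these letters in this window and does not show that a factor was bound there.

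Libraries were even in depth, with 19863304 to 21510054 counts each. Levels are given as CPM, counts scaled to a common library total with TMM factors, and hepatocyte markers summed to 66882 to 137694 CPM. Lmna, which the liver kept by design, was at 15.7 to 22.1 CPM in control livers with vehicle and 23.6 to 31.0 CPM in Lmna ADKO livers with vehicle, so these reads do not check the adipocyte deletion. Fgf21 overlapped between all groups, at 1.90 to 10.8 CPM in controls with vehicle and 3.14 to 7.40 CPM in controls with rescue, and therefore did not separate the treatment labels. In 3 libraries, Lmna ADKO with rescue replicate 7, control with rescue replicate 3 and control with vehicle replicate 3, long transcripts were counted lower than in the other 21 (slopes on gene length of -0.33, -0.29 and -0.15 against -0.11 to 0.13). Animal numbers also differed between groups. Of the controls with vehicle, 6 of 7 had 3-digit numbers, but only 1 of 6 Lmna ADKO mice with vehicle and 0 of 3 controls with rescue did, so that number series and group cannot be fully told apart. What the number series stands for is not in the labels. Among markers of non-parenchymal cells, the stellate cell markers Col1a1, Lrat, Des and Dcn summed to 145 to 191 CPM in controls with vehicle and 206 to 289 CPM in Lmna ADKO mice with vehicle. Dcn made up most of that sum (138 ± 11.1 against 189 ± 19.9 CPM, mean ± SD), and Des was at 6.99 ± 0.955 against 5.78 ± 0.707 CPM. Endothelial markers summed to 120 to 153 against 102.1 to 149 CPM and macrophage markers to 332 to 517 against 236 to 453 CPM. The part of these cells in the results below was not tested. Of the adipocyte markers, Adipoq reached at most 0.609 CPM, Plin1 0.285 CPM and Lep 0.190 CPM in any library, and only Cidea, also known from fatty hepatocytes, was higher in Lmna ADKO livers (5.6 to 50.4 CPM with vehicle against 0 to 0.138 CPM). In bulk tissue, fewer cells of a type and less RNA per cell cannot be told apart.

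Clock transcripts spanned a wide range of levels per length of transcript. Over the 24 libraries, Dbp was highest at 38.9 ± 12.1 CPM per kb (mean ± SD), followed by Nr1d1 at 31.9 ± 9.61 and Nr1d2 at 11.5 ± 2.01 CPM per kb. The repressors lay lower, with Per1 at 5.55 ± 2.45, Per2 at 2.80 ± 1.32, Per3 at 2.04 ± 0.853 and Cry1 at 1.88 ± 0.534 CPM per kb. The activators were lowest, with Clock at 1.26 ± 0.295, Arntl at 0.377 ± 0.231 and Npas2 at 0.0992 ± 0.0675 CPM per kb. Neighbours in this order mostly overlapped: Dbp exceeded Nr1d1 in 14 of 24 libraries and Per3 exceeded Cry1 in 12 of 24. Only the ranges of Nr1d1 and Nr1d2 did not overlap. Npas2 rested on 2 to 22 counts and Arntl on 12 to 144 counts per library, so the fold changes of both are the least precise of the set.

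**Figure D1:**
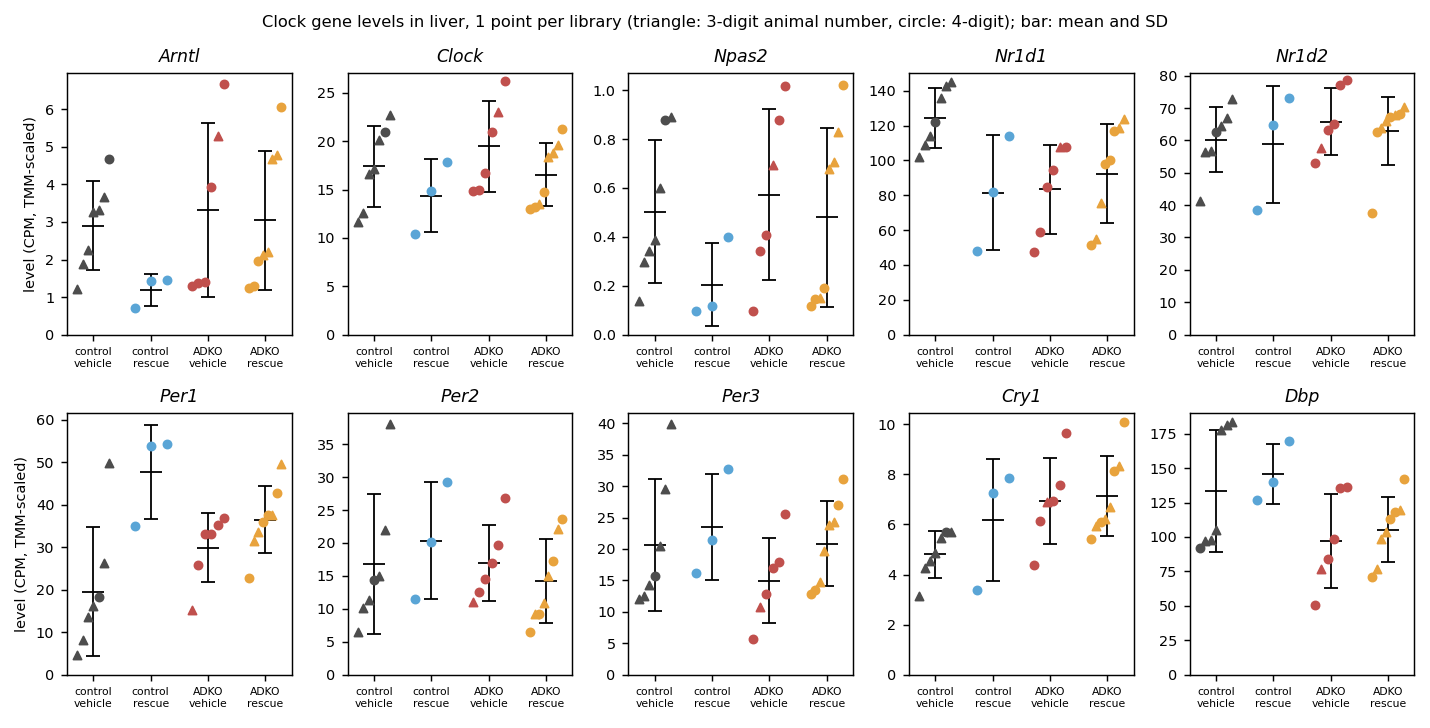
Level of each clock gene (y axis, CPM after TMM scaling, from 0) in each liver library (points, ordered by level within the group) for the 4 groups of genotype and treatment; black marks show mean and SD, triangles 3-digit and circles 4-digit animal numbers. For every gene the groups overlap in each pair compared, and Per1 in controls with vehicle spans 4.50 to 49.8 CPM.

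The first comparison asked whether lipodystrophy changed clock transcripts in liver, by setting Lmna ADKO against control mice given vehicle. In edgeR's quasi-likelihood test, 0 of 10 clock genes passed an adjusted p (Benjamini-Hochberg over all genes) of 0.05 with a fold above 1.5, while 8.48% of all genes did. DESeq2 also called 0. At an unadjusted p below 0.05 there were 3 clock genes in both tools, against 27% of all genes in edgeR. The median log2 fold change of the 10 genes was 0.14, beside 0.0027 over all genes. For none of the 10 did the 2 groups fail to overlap, which happened for 7.95% of all genes. The genes with the smallest p were Cry1, Nr1d1 and Dbp, a repressor, a REV-ERB and an output factor.

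Among the activators, log2 fold changes were 0.16 to 0.19, with wide intervals for Arntl and Npas2. Arntl (chr7:113207465-113314126, plus strand, GRCm38), which encodes BMAL1, ranged from 1.22 to 4.68 CPM with a median of 3.27 in controls and from 1.31 to 6.66 CPM with a median of 2.67 in Lmna ADKO mice. The 6 Lmna ADKO livers fell into 3 with 1.31, 1.36 and 1.41 CPM and 3 with 3.92, 5.28 and 6.66 CPM, and the highest control stayed below the 2 highest of these. The log2 fold change was 0.19 (95% interval -0.72 to 1.10, adjusted p = 0.838 by edgeR). Clock (chr5:76209868-76304792, minus strand), the histone acetyltransferase partner of BMAL1, had medians of 17.2 CPM in controls and 18.9 CPM in Lmna ADKO mice, with a log2 fold change of 0.16 (interval -0.19 to 0.51). Npas2 (chr1:39193731-39363236, plus strand), the alternative partner, differed by 0.19 on the log2 scale (interval -0.85 to 1.22). The intervals of Arntl and Npas2 both reached past a doubling.

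Among the repressors, Cry1 (chr10:85131700-85185064, minus strand), which encodes the cryptochrome that blocks CLOCK and BMAL1 most directly, was at 3.13, 4.86 and 5.72 CPM as the lowest, median and highest of the controls. In Lmna ADKO mice the same values were 4.38, 6.92 and 9.64 CPM. Apart from replicate 3, at 4.38 CPM, all Lmna ADKO livers lay above the highest control. The log2 fold change was 0.53 ± 0.19 (SE, interval 0.14 to 0.91), with an adjusted p of 0.0562 by edgeR and a fold below the 1.5 required. The adjusted p was 0.0371 by DESeq2, 0.0187 when only the 2 groups compared were fitted and 0.254 with the length of the animal number as a covariate. Without Lmna ADKO with vehicle replicate 3, Cry1 passed both thresholds (log2 fold change 0.63).

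Per1 (chr11:69095217-69109960, plus strand), an immediate responder to glucocorticoids and other signals, ran from 4.50 to 49.8 CPM with a median of 16.2 in controls and from 15.1 to 36.9 CPM with a median of 33 in Lmna ADKO mice. The 4 controls with animal numbers in the 400s were at 13.4, 4.50, 16.2 and 8.19 CPM, and the other 3 were at 26.4, 49.8 and 18.2 CPM. Its log2 fold change of 0.61 had an interval of -0.15 to 1.38 (adjusted p of 0.294 by edgeR). Leaving out the control at 49.8 CPM, replicate 6, raised it to 1.04 and past the threshold. Per2 (chr1:91415982-91459324, minus strand) had overlapping ranges of 6.49 to 38.1 CPM in controls and 11 to 26.8 CPM in Lmna ADKO mice, with a log2 fold change of 0.01 whose interval of -0.76 to 0.78 was about as wide as that of Per1. Per3 (chr4:151003652-151044665, minus strand) ranged from 12.1 to 39.9 CPM and from 5.74 to 25.6 CPM, with a log2 fold change of -0.46 (interval -1.15 to 0.23).

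Of the REV-ERB genes, neither passed the threshold. Nr1d1 (chr11:98767932-98775333, minus strand), the heme-sensing repressor of Arntl, was at 102.2, 122 and 145 CPM as the lowest, median and highest of the controls and at 47.2, 89.6 and 108 CPM in Lmna ADKO mice. Only the 2 highest Lmna ADKO livers, both at 108 CPM, came within the control range. Its log2 fold change was -0.58 ± 0.23 (SE, interval -1.04 to -0.11), with an adjusted p of 0.0922 by edgeR. That adjusted p was 0.0426 by DESeq2 and 0.286 with the length of the animal number as a covariate. Of its 3077 exonic bases, 263 lie opposite exons of Thra. Nr1d2 (chr14:18204054-18239127, minus strand) had medians of 62.7 and 64.2 CPM and a log2 fold change of 0.13 (interval -0.17 to 0.43), the narrowest interval of the 10 genes.

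Dbp (chr7:45705088-45710203, plus strand), the D-box activator that carries BMAL1 activity to output genes, was at 91.9, 105 and 183 CPM as the lowest, median and highest of the controls and at 50.7, 91.5 and 137 CPM in Lmna ADKO mice. Controls split into 4 livers at 91.9 to 105 CPM and 3 at 178 to 183 CPM, and no Lmna ADKO liver reached the higher set. The log2 fold change was -0.46 ± 0.22 (SE, interval -0.92 to -0.0012), with an adjusted p of 0.184 by edgeR. Exons of Sphk2 lie opposite 539 of its 2993 exonic bases.

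**Figure D2:**
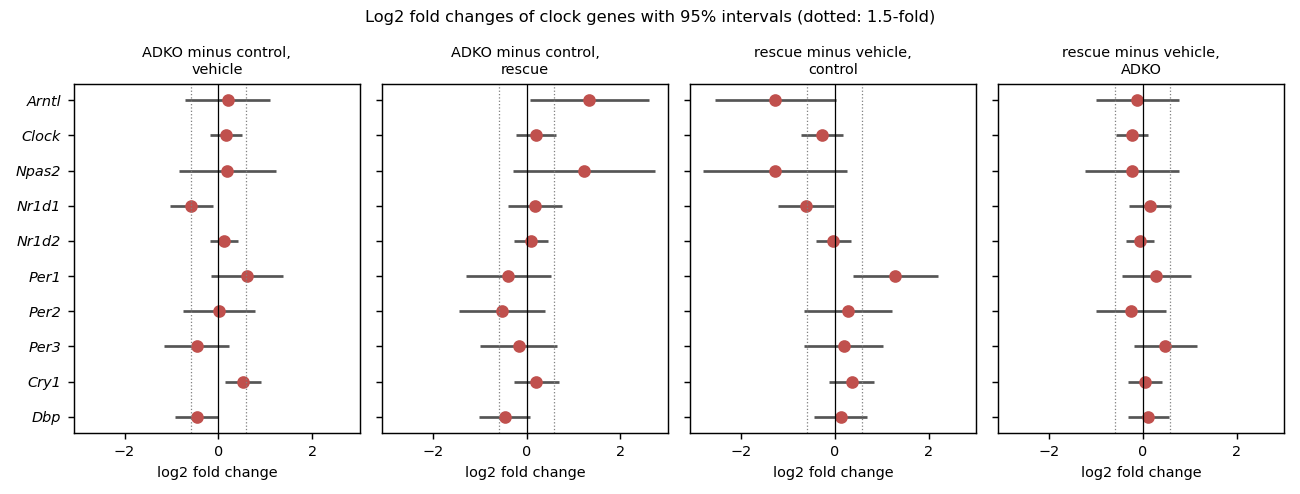
Log2 fold change (x axis) of the 10 clock genes in 4 comparisons, with 95% intervals from edgeR's quasi-likelihood fit as horizontal lines, a solid line at 0 and dotted lines at a 1.5-fold change. With vehicle, the intervals of Cry1 (0.14 to 0.91), Nr1d1 (-1.04 to -0.11) and Dbp (-0.92 to -0.0012) exclude 0 before adjustment, and those of Arntl and Npas2 are the widest in every panel.

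The same genotypes were then compared under rescue, where the control group held 3 livers. No clock gene was called (0 of 10 by edgeR and by DESeq2, against 2.88% of all genes by edgeR), 1 had an unadjusted p below 0.05 in each tool (16.9% of all genes by edgeR), and none had groups apart (5.35% of all genes). The median log2 fold change was 0.14, beside 0.018 over all genes. Arntl was the gene with the smallest p. Its levels were 1.43, 1.45 and 0.699 CPM in the control livers and 1.23, 2.16 and 6.07 CPM as the lowest, median and highest of Lmna ADKO livers. Of the 8 Lmna ADKO livers, 6 lay above all controls and the other two, at 1.23 and 1.29 CPM, lay within their range. The log2 fold change was 1.34 ± 0.61 (SE, interval 0.071 to 2.61), with an adjusted p of 0.267 by edgeR, and 1.13 (adjusted p = 0.669) among 4-digit animal numbers alone.

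Npas2, the other low activator, differed by 1.22 (interval -0.29 to 2.74), or by 2.15 without control with rescue replicate 2, and Clock by 0.20 (interval -0.23 to 0.64). The repressors Per1, Per2 and Per3 had log2 fold changes of -0.39, -0.52 and -0.17, and Cry1 had 0.21. Intervals for the first and second of these reached from -1.29 to 0.51 and from -1.43 to 0.40. Nr1d1, at 82.2, 114 and 48.2 CPM in the controls, differed by 0.18 (interval -0.39 to 0.75), and Nr1d2 by 0.10 (interval -0.27 to 0.47). Dbp was at 127, 140 and 170 CPM in the controls and at 70.7, 108 and 142 CPM as the lowest, median and highest of Lmna ADKO livers. Its log2 fold change of -0.47 (interval -1.01 to 0.075, adjusted p = 0.388 by edgeR) stands beside the -0.46 with vehicle, from other libraries.

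Effects of the rescue treatment were tested within each genotype. In controls, 0 of 10 clock genes were called by either tool (0.0542% of all genes by edgeR), 2 by edgeR and 3 by DESeq2 had an unadjusted p below 0.05 (6.16% of all genes by edgeR), and none had groups apart (1.67% of all genes). Per1 was at 54.3 and 53.9 CPM in control livers with rescue, above all vehicle controls, and at 35 CPM in the other, above all of them but replicate 6. The log2 fold change of Per1 was 1.29 ± 0.43 (SE, interval 0.39 to 2.19), with an adjusted p of 0.576 by edgeR. The single vehicle control with a 4-digit animal number had 18.2 CPM, and all 3 controls with rescue had 4-digit numbers, so treatment and number series can hardly be told apart in this comparison. Nr1d1 had a log2 fold change of -0.61 (interval -1.20 to -0.017, adjusted p = 0.771 by edgeR). Arntl and Npas2 had values of -1.27 each, with intervals of -2.55 to 0.016 and -2.81 to 0.27 (Npas2 was -2.20 without control with rescue replicate 2), and the other 6 genes lay between -0.27 and 0.36. The median over the 10 genes was 0.045, and over all genes 0.

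In Lmna ADKO mice, 8 livers with rescue were set against 6 with vehicle. By either tool 0 of 10 clock genes were called and 0 had an unadjusted p below 0.05, and edgeR called 0% of all genes, with 6.71% at an unadjusted p below 0.05 (DESeq2 called 15 genes, and edgeR 61 without Lmna ADKO with rescue replicate 3, of which 0 were clock genes). No clock gene had groups apart (0.0751% of all genes). Log2 fold changes ran from -0.25 for Per2 (interval -1.0 to 0.50) to 0.48 for Per3 (interval -0.19 to 1.15), with a median of -0.011 beside 0.0038 over all genes. The intervals of Clock, Cry1, Nr1d2 and Dbp lay between -0.57 and 0.56, whereas those of Arntl and Npas2 reached from -1.0 to 0.76 and from -1.24 to 0.77. The difference of the treatment effect between genotypes called 0 of 10 clock genes in both tools (0.00417% of all genes by edgeR). Nr1d1 alone had an unadjusted p below 0.05 in edgeR (4.86% of all genes), with 0.76 on the log2 scale (interval 0.015 to 1.5, adjusted p = 0.984 by edgeR). For Per1 that difference was -1.0 (interval -2.18 to 0.17) and for Arntl 1.15 (interval -0.40 to 2.7). All of these comparisons share libraries with another: the vehicle controls enter both the genotype comparison with vehicle and the treatment comparison in controls, and the 3 rescue controls enter the latter and the genotype comparison with rescue.

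In Lmna ADKO mice with rescue, 4 livers had 3-digit and 4 had 4-digit animal numbers, which allowed the number series to be compared inside a group. Two-sided exact permutation tests on log2 CPM gave p of 0.343 to 0.971 for the 10 genes, and 0.971 for each after Benjamini-Hochberg adjustment over the 10. The smallest p this design allows is 0.0286. Differences (4-digit minus 3-digit) ran from -0.77 for Npas2 to 0.13 for Dbp on the log2 scale.

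Livers of the same group differed widely in several clock genes. Per1 had an 11.1-fold ratio of the highest to the lowest liver in controls with vehicle, but 1.55-fold to 2.45-fold in the other 3 groups. That ratio within groups ran from 4.20 to 10.5 for Npas2, from 2.07 to 5.1 for Arntl, from 2.43 to 5.87 for Per2 and from 2.01 to 4.45 for Per3. For Nr1d2 it was 1.48 to 1.89 and for Clock 1.63 to 1.96. A ratio of extremes tends to be smaller with fewer livers. The lowest ratios of Npas2, Arntl, Per1 and Per3 all came from controls with rescue (n = 3). The within-group SD on the log2 scale was 0.694 for Per1, 0.673 for Per2 and 0.611 for Per3, at percentiles 98.4, 98.2 and 97.5 of the 9924 genes whose mean level reached 2 on the log2 CPM scale and whose median SD was 0.228. Nr1d1 (0.447) and Dbp (0.431) were at percentiles 92.7 and 91.7, and Cry1 (0.370), Clock (0.337) and Nr1d2 (0.297) at 85.6, 80.9 and 72.5. Arntl, too low for that ranking, had an SD of 0.825, at percentile 98.3 of the 12492 genes whose mean reached 0, and Npas2 had 0.898, with counting error a larger share at its level. These percentiles are descriptions, without a test.

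**Figure D3:**
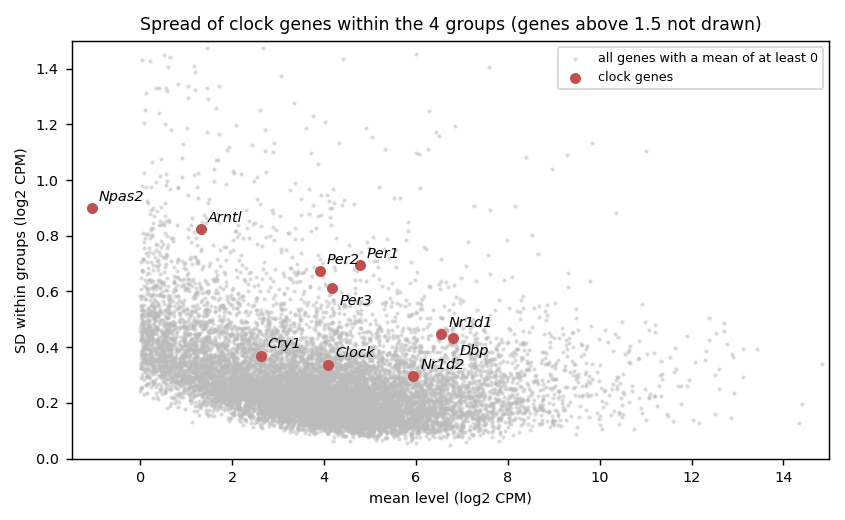
Within-group SD of log2 CPM (y axis) against mean log2 CPM (x axis) for genes with a mean of at least 0 (grey, 36 with an SD above 1.5 not drawn) and the 10 clock genes (red, named). Among all genes with a mean of at least 0, Per1, Per2 and Per3 are at percentiles 95.8 to 97.2, and Clock and Nr1d2 at 72.6 and 63.1. No ranking among genes of like level was made.

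Part of this spread was shared between some of the clock genes. Inside each group with at least 6 livers, Arntl and Dbp, which peak at nearly opposite times in a running clock, were opposed. Pearson's r on log2 CPM was -0.89 in controls with vehicle (n = 7, exact permutation p = 0.00833, adjusted p = 0.0250 over 12 tests), -0.92 in Lmna ADKO mice with vehicle (n = 6, exact permutation p = 0.00139, adjusted p = 0.00794) and -0.91 with rescue in Lmna ADKO mice (n = 8, exact permutation p = 0.00057, adjusted p = 0.00685). Spearman's rho was -0.82, -1.0 and -0.90, with exact permutation p of 0.0341, 0.00278 and 0.00456 (adjusted 0.102, 0.0274 and 0.0274). Without the 2 livers farthest from the median of Arntl, r was -0.90, -0.81 and -0.94. Both genes left gaps between livers inside groups, such as the 3 low and 3 high Arntl livers among Lmna ADKO mice with vehicle. With under 6 livers on either side of a gap, the relation within such sets cannot be tested.

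Arntl and Npas2, which encode partners, had r of 0.38 in controls with vehicle, 0.83 in Lmna ADKO mice with vehicle and 0.88 in Lmna ADKO mice with rescue (exact permutation p = 0.409, 0.0472 and 0.00198, adjusted 0.491, 0.0944 and 0.00794). Spearman's rho was 0.36, 0.77 and 0.88 (exact permutation p = 0.444, 0.103 and 0.00724), and r without the 2 farthest livers was 0.24, 0.76 and 0.81. Without Lmna ADKO with rescue replicate 7, r in that group was 0.85 with an adjusted p of 0.0944. Arntl and Nr1d1, its repressor, had r of 0.21, 0.83 and 0.34 (exact permutation p = 0.637, 0.0431 and 0.403), with rho of 0.00, 0.83 and 0.43 (exact permutation p = 1.0, 0.0583 and 0.299). Nr1d1 and Dbp, both direct targets of BMAL1, had r of -0.04, -0.60 and -0.35 (exact permutation p = 0.948, 0.210 and 0.390), with rho of 0.21, -0.83 and -0.48 (exact permutation p = 0.662, 0.0583 and 0.243). Without the 2 farthest livers, r was -0.59, 0.65 and 0.07 for the former pair and -0.78, -0.90 and -0.16 for the latter. Adjusted over the 12 tests, 4 values of r passed 0.05, the 3 for Arntl with Dbp and the one for Arntl with Npas2.

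**Figure D4:**
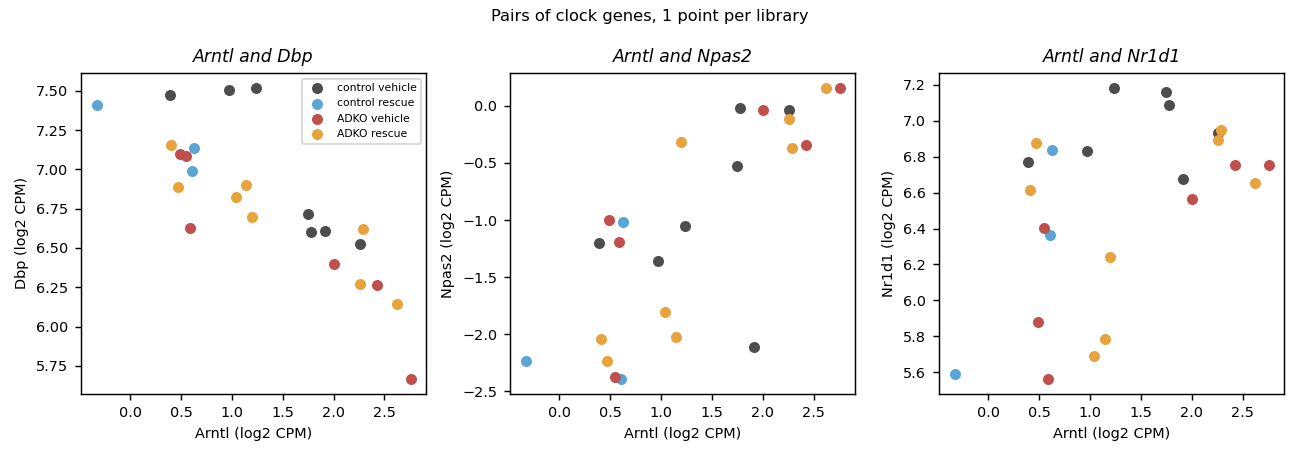
Log2 CPM of Arntl (x axis) against Dbp, Npas2 and Nr1d1 (y axes), 1 point per liver, coloured by group. In the left panel Dbp falls as Arntl rises within each of the 3 larger groups (r of -0.89, -0.92 and -0.91), and the 3 controls with rescue lie at its upper left.

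The log2 difference of Arntl minus Dbp in each liver, a simple measure of position along this axis, ran from -7.08 to -4.27 in controls with vehicle (median -4.97), from -6.61 to -2.91 in Lmna ADKO mice with vehicle (median -5.21) and from -6.75 to -3.52 in Lmna ADKO mice with rescue (median -5.63). The 3 controls with rescue were at -7.74, -6.51 and -6.38, at the Dbp-high end, the first beyond the lowest vehicle control and the others inside their range. The 3 larger groups overlapped over most of the axis. The 4 livers with the highest values, -4.01 to -2.91, were from Lmna ADKO mice, which gave 6 livers with vehicle and 8 with rescue. Next came a control with vehicle, at -4.27. With vehicle, the median of Lmna ADKO mice lay below that of controls, but their mean lay above it (-5.05 ± 1.56 against -5.52 ± 1.09, mean ± SD). A shift between groups along this axis was not tested.

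**Figure D5:**
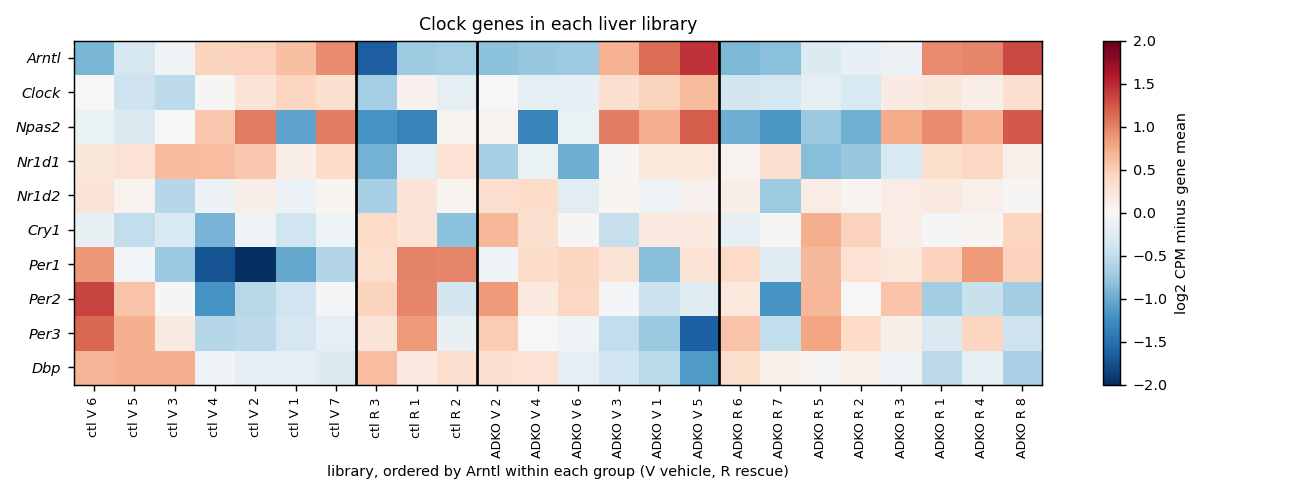
Log2 CPM of each clock gene minus its mean over the 24 libraries (colour, from -2 to 2), with libraries on the x axis ordered by Arntl within each group (ctl control, V vehicle, R rescue) and black lines between groups. Within groups Dbp runs from high to low as Arntl runs from low to high, and Per2 and Per3 change together.

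With group means removed, the other clock genes were compared with the same axis over all 24 libraries (r as a measure of likeness, without a test). Clock was closest to Arntl among the members (r = 0.82) and opposed to Dbp (r = -0.87). Per3 was closest to Dbp (r = 0.78), and Per2 and Per3 were alike (r = 0.85), with Per1 less so (r = 0.61 and 0.56). Cry1, Nr1d2 and Per1 had little relation to Arntl (r = -0.17, 0.13 and -0.20). Nr1d2 rested most on the 3 libraries with low counts of long transcripts: without them its r to Arntl was -0.39 and that to Dbp moved from -0.07 to 0.45.

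Among these 9924 genes, those with the highest r to Arntl were Clpx, a subunit of a mitochondrial protease (r = 0.95), Pde9a, a cyclic GMP phosphodiesterase (0.87), Sumo3 (0.86), Asap2 (0.86) and Dtx4 (0.86). Those most opposed to Arntl were the growth factor gene Nrg4 (-0.89), Dbp itself (-0.88), the cell cycle kinase gene Wee1 (-0.85), Alas1, which encodes the rate-limiting enzyme of heme synthesis (-0.84), and the deubiquitinase gene Usp2 (-0.81). Nearest to Dbp were Usp2 (0.81), Per3 (0.78), Tomm40 (0.77), Nrg4 (0.77) and the cytochrome P450 gene Cyp2a5 (0.77). Opposite to Dbp lay Clock (-0.87), Clpx (-0.86), Dtx4 (-0.86) and Insig2, a brake on sterol synthesis (-0.84). Without the 3 libraries named above, r of these pairs kept its sign and ranged in size from 0.77 to 0.96.

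Further genes of the pathway were read from 6 lists that held 54 genes, of which 53 had a row (Rorb was not analysed here). The lists were chosen with earlier results of these data known, so counts of calls in them are descriptions only. Beside the 10 clock genes, the second loop and its D-box partners (among them Cry2, Rora, Bhlhe40, Bhlhe41, Ciart, Nfil3, Tef, Hlf, Arntl2 and Timeless) had 0 of 11 called in Lmna ADKO against control mice with vehicle, with 1 at an unadjusted p below 0.05 and log2 fold changes of -0.43 to 0.88. The kinases, ligases and other modifiers of clock proteins had 0 of 11 called and 4 at an unadjusted p below 0.05, and the glucocorticoid-responsive genes 0 of 5 and 1. Over all genes, 8.48% were called and 27% had an unadjusted p below 0.05. Calls came from the other 3 lists, 7 in all. Among rhythmic liver outputs, 4 of 11 were called: Elovl3, a fatty acid elongase, rose (log2 fold change 2.08), as did Insig2 (1.20) and Nampt, the NAD salvage enzyme (0.69), whereas Cyp2a5 fell by 1.07. Among feeding and fasting genes, 2 of 8 were called, among them Irs2, an insulin receptor substrate, which was lower (-0.92), and among temperature-responsive genes 1 of 7, the cold-inducible Rbm3 (0.78).

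Medians of these lists with vehicle were 0.69 for rhythmic outputs, 0.28 for feeding and fasting, 0.39 for glucocorticoid-responsive genes, 0.13 for modifiers, -0.04 for temperature-responsive genes and -0.18 for the second loop, beside 0.0027 over all genes. Insig2 did not overlap between the genotypes, at 57.3 to 170 CPM in controls and 187 to 398 CPM in Lmna ADKO mice. Cyp2a5 lost its call when any of 8 livers was left out (control replicates 3, 5, 6 and 7 and Lmna ADKO replicates 1, 3, 5 and 6, log2 fold changes of -1.11 to -0.94), and Rbm3 without Lmna ADKO replicate 4 (0.58). With the length of the animal number as a covariate, Nampt, Elovl3 and Rbm3 missed the threshold (log2 fold changes of 0.55, 1.68 and 0.69, adjusted p = 0.0665, 0.0513 and 0.104 by edgeR). With the block of animal numbers as a covariate, Irs2 missed it (-0.62, adjusted p = 0.230 by edgeR). So did Nampt, Elovl3 and Rbm3 (0.47, 1.75 and 0.53, adjusted p = 0.175, 0.101 and 0.286 by edgeR). Cyp2a5 missed it without the 3 libraries named above (-0.98, adjusted p = 0.0818 by edgeR) or with only the groups compared (-1.06, adjusted p = 0.0871 by edgeR). Insig2 was also opposed to Dbp over all libraries with group means removed, as given above. With rescue, Insig2 was the only gene of the 6 lists called (log2 fold change 1.58, adjusted p = 0.00202 by edgeR), from 51.3, 87.1 and 98.2 CPM in controls to 175 to 293 CPM in Lmna ADKO livers. In both tests of treatment and in the test of the difference between genotypes, 0 of the 53 genes were called by edgeR and by DESeq2. For rescue against vehicle in controls, 6.16% of all genes had an unadjusted p below 0.05 by edgeR. In the lists, 4 of 5 glucocorticoid-responsive genes, 5 of 11 rhythmic outputs and 3 of 8 feeding and fasting genes did. Their list medians were 0.98, 0.60 and 0.44. So did 2 of 11 modifiers, 1 of 11 second-loop genes and 1 of 7 temperature-responsive genes. Per1 had 1.29 in the same livers. As given above, treatment and number series can hardly be told apart in this comparison. The part of these shifts in the level of Per1 was not tested.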

How the data were processed

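Polyadenylated RNA from 24 mouse livers was sequenced from strand-marked (dUTP) libraries. The deposited values are whole-number counts per Ensembl gene that the authors made before deposit. The submitters' processing notes name cutadapt 4.8, FastQC 0.11.8, STAR 2.7.8a, RSEM 1.3.3 and GRCm38, and the study names Ensembl 102; with RSEM, whole numbers may be rounded estimates, and the strand setting of counting is not given in the sources used here. Symbols were found for 23900 of 23972 IDs, and coordinates for 23926 in GENCODE M21 (GRCm38). CPM used edgeR TMM factors, and log2 CPM a prior count of 2.

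All genes were fitted with edgeR 4.0.16 (glmQLFit and glmQLFTest, 4 groups in 1 model, R 4.3.3). Calls needed an adjusted p below 0.05 and a fold above 1.5. DESeq2 1.42.0, as in the study, was an alternative. The fit was tested on simulated counts. Correlations used log2 CPM inside groups with exact permutation tests (SciPy 1.17.1). Nothing states whether libraries of a group came from separate cohorts or days, so p-values measure the spread between these animals. With 19863304 to 21510054 counts per library, the low counts of Npas2 and Arntl limited their precision. Confidence intervals are at 95%.

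Named genes were the 10 clock genes, up to 4 called genes per list with the smallest adjusted p, and the 5 genes most and least like Arntl and Dbp, some of which are not reported here. The members and lists were chosen with earlier results of these data known.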

Additional observations from a re-analysis of the deposited data

Results flagged for a closer look

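Of 30 groups of 6 to 8 livers tested (10 clock genes in 3 groups), 1 had a liver far from the rest, where chance gives about 1 in 20 groups. In Lmna ADKO mice with rescue, Nr1d2 was at 37.5 CPM in replicate 7 and at 62.5 to 70.5 CPM in the other 7 livers, a gap of 0.811 of the whole range. That library also had the lowest slope of counts on gene length (-0.33), and the part of that slope in the value was not tested.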

How the results depend on the processing

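No paired analysis was possible because animal numbers each name a single mouse and the groups share none. For the clock genes as a group, the count called was 0 in every alternative fit of all 5 comparisons except the fits that left out 1 liver in Lmna ADKO against control with vehicle, which gave 0 to 1: Cry1 without Lmna ADKO with vehicle replicate 3, and Per1 without control with vehicle replicate 6. Calls in the 6 other lists with vehicle fell from 7 to 4 with the length of the animal number as a covariate and to 3 with the block of numbers an animal belonged to (400s, 600s and so on). With rescue they rose from 1 to 5 with DESeq2, 4 with filterByExpr or with only the groups compared, 2 with each library's slope on gene length in the fit or with only 4-digit numbers, and 1 to 3 when 1 liver was left out.

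Directions turned only for differences that had not passed a threshold. Per2 with vehicle was -0.051 with number length, -0.37 with number block and -0.16 to 0.36 without 1 liver. Without 1 liver, Arntl with vehicle was -0.13 to 0.36 and Npas2 -0.050 to 0.40. With rescue, Nr1d1 was -0.14 and Nr1d2 -0.041 without the 3 libraries that stand apart, Nr1d2 was -0.011 among 4-digit numbers, and without 1 liver the ranges were -0.091 to 0.50 for Nr1d1, -0.13 to 0.29 for Nr1d2, -0.38 to 0.15 for Per3 and -0.085 to 0.41 for Cry1. For rescue against vehicle in controls, number block gave -0.079 for Per2, -0.067 for Per3 and -0.018 for Dbp, Nr1d2 was 0.090 with the slope on gene length and 0.12 without the 3 libraries, and leaving out 1 liver gave -0.085 to 0.62 for Per2, -0.13 to 0.43 for Per3, -0.22 to 0.19 for Nr1d2 and -0.00052 to 0.23 for Dbp. The cause was not tested.

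Over all genes, calls with vehicle were 2033, and 1071 with number block; with rescue 690, and 344 with only the groups compared, 307 among 4-digit numbers, 402 without the 3 libraries, 339 without control with rescue replicate 3, 416 without its replicate 2, 1006 by DESeq2 and 1149 without Lmna ADKO with rescue replicate 7, where 501 were higher and 648 lower against 387 and 303. In controls, 13 genes were called for treatment by edgeR and 38 by DESeq2, 0 with either number covariate, 26 without control with vehicle replicate 6 and 3 to 13 without 1 of the other livers. In Lmna ADKO mice, 0 were called by edgeR, 15 by DESeq2 and 61 (21 higher, 40 lower) without the rescue replicate 3. Ranking the spread among genes with a mean of at least 0 was chosen after seeing the data.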
